A study of Homo sapiens with 18 samples.

Results

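MCF10A is a spontaneously immortalized, non-tumorigenic line of basal-like breast epithelial cells, and MCF10CA1h is a malignant line that was derived from MCF10AT1, the MCF10A cells that carry a mutated HRas, by serial passage as xenografts in mice. Both lines received a Cas9 construct with an mCherry marker and a guide RNA, either the negative control guide (genotype Control Negative CRISPR) or a guide to exon 1 of METTL3 (genotype METTL3 CRISPR knockdown), and the sorted cells were diluted to single cells. Each of the 4 groups is therefore 1 selected CRISPR line with 3 RNA sequencing replicates (a, b and c), and the p-values given here measure the spread between libraries and not that between clones. The main fit took 1 estimate of this spread per gene for all 4 groups of both lines. The 12 libraries are part of 18, and the other 6 are MCF10AT1 libraries of the same genotypes. The question was which genes responded to METTL3 CRISPR in opposite directions in the non-tumorigenic and in the malignant line. For each gene the effect in a line was the mean log2(normalized count + 1) of its METTL3 CRISPR libraries minus that of its controls, and the difference of effects was the effect in MCF10CA1h minus the effect in MCF10A. Of 35933 genes with values, 15534 averaged at least 10 across the 12 libraries and were tested. A gene is called opposed where the difference of effects and the effect in each line all had an adjusted p under 0.05 and the 2 effects had opposite signs. Values given for the libraries of a group are normalized counts in the order a, b and c.

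METTL3 is the catalytic subunit of the complex that writes N6-methyladenosine, an abundant internal modification of mRNA. Type I interferon acts on cells through receptors that activate transcription factors, IRF9 among them. These bind an element built on repeated GAAA in the promoters of interferon-stimulated genes, many of which encode antiviral proteins. Basal breast epithelial cells are held to the basement membrane by hemidesmosomes made of a laminin, an integrin pair and collagen XVII.

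METTL3 mRNA did not separate the groups in MCF10A. The normalized counts of METTL3 were 752, 686 and 459 in the MCF10A control libraries and 939, 981 and 510 in the MCF10A METTL3 CRISPR libraries, so that the CRISPR mean was 128% of the control mean (two-sided exact permutation test, p = 0.3). They were 1022, 1102 and 1280 in the MCF10CA1h controls and 825, 745 and 843 in the MCF10CA1h METTL3 CRISPR libraries, 70.8% of the control mean, with no overlap (two-sided exact permutation test, p = 0.1, the smallest that 3 against 3 libraries allow). The difference of effects for METTL3 was -0.82 ± 0.34 (adjusted p = 0.137) by limma, and values after ± are standard errors throughout. With the replicate letter as a block it passed, with an adjusted p of 0.0172 where the block was taken within each line and 0.00824 where it was taken within MCF10A alone. The paper reports lower METTL3 protein by Western blot in the knockdown lines of each cell line, but not to the same degree. It describes MCF10CA1h as the most resistant, with a moderate knockdown in both candidates. In MCF10A the knockdown was more apparent in a single candidate, and the paper does not name the candidate that was sequenced. It reports a significant decrease of m6A in MCF10CA1h and a non-significant decrease in MCF10A. By RT-PCR it reports a smaller effect on METTL3 mRNA, still in the direction of a decrease. Group names below follow the labels. The controls of MCF10A varied more than the other 3 groups: the median SD per gene on the log2 scale was 0.321 among them against 0.249, 0.185 and 0.197 in the MCF10A METTL3 CRISPR, MCF10CA1h control and MCF10CA1h METTL3 CRISPR groups. Because the main fit pooled the spread of all groups, a p-value for MCF10A rests partly on the steadier MCF10CA1h libraries. The 12 libraries summed to between 21347352 and 26054148 normalized counts, and depth in reads is unknown because the deposited values are not whole reads. All 12 basal markers, among them KRT5 and TP63, were detected in every library, and their sum was 588610 to 1076607 in the MCF10A controls, 537465 to 577888 in MCF10A METTL3 CRISPR, 399224 to 403440 in the MCF10CA1h controls and 602418 to 719724 in MCF10CA1h METTL3 CRISPR. Among markers of other cell types PTPRC was at 0 in 8 libraries, CD3E in 9, VWF in 8 and CLDN5 in 10. The summed leukocyte markers, carried mainly by CD68, CD14 and CSF1R, were 841 to 2257 in the MCF10A controls, 392 to 616 in MCF10A METTL3 CRISPR, 912 to 1010 in the MCF10CA1h controls and 935 to 1140 in MCF10CA1h METTL3 CRISPR. Summed fibroblast markers were 1852 to 2194, 1642 to 4707, 1484 to 1822 and 2756 to 2841 in the same order, summed endothelial markers 63 to 242, 349 to 557, 106 to 150 and 53 to 85, and summed luminal markers 16098 to 23897, 14097 to 16699, 51479 to 74412 and 64625 to 77395. In such bulk libraries fewer cells of a type and less RNA per cell cannot be told apart.

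The effects of METTL3 CRISPR differed between the lines for 2217 genes (14.3% of those tested by limma with Benjamini-Hochberg adjustment, against 4390 at an unadjusted p under 0.05). The difference was positive, that is toward higher in MCF10CA1h, for 1402 genes (9.03%) and negative for 815 (5.25%). The share of positive differences was 63.2%, and it was 49.2% where the libraries were scaled to equal sums, which moved the median difference of all genes from -0.02 to -0.17. Of the 2217 genes, 562 fell in MCF10A alone by the test of each effect, 387 rose in MCF10A alone, 273 rose and 142 fell in MCF10CA1h alone, 607 passed in neither line and 1 rose in both. Opposed effects were found for 245 genes (1.58%). These were 199 genes that fell in MCF10A and rose in MCF10CA1h (1.28%) and 46 that rose in MCF10A and fell in MCF10CA1h (0.296%). Over all genes tested 977 fell (6.29%) and 635 rose (4.09%) in MCF10A, and in MCF10CA1h 267 fell (1.72%) and 561 rose (3.61%). Both effects passed for 266 genes, and only 21 of those moved the same way in the 2 lines. METTL3 CRISPR and control libraries did not overlap, in MCF10A and also in MCF10CA1h, for 241 of the opposed genes, against 9.82% of all genes tested. The opposed genes were chosen by their effects in these same libraries, so that this count largely follows from the choice and is no separate support. The count of opposed genes was 119 with each line fitted alone for its own effect, of which 76 were among the 245, and 53 with the 18 libraries fitted together. Without 1 MCF10A control it was 445 (without a), 196 (without b) and 183 (without c), and it fell to between 91 and 149 without any single MCF10CA1h library and to 137 without MCF10A METTL3 CRISPR a. Same-letter libraries deviated together in MCF10A and not in MCF10CA1h, and with the letter as a block the count was 368 (289 and 79 in the 2 directions) with the block within each line and 452 (351 and 101) with it within MCF10A alone.

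**Figure D1:**
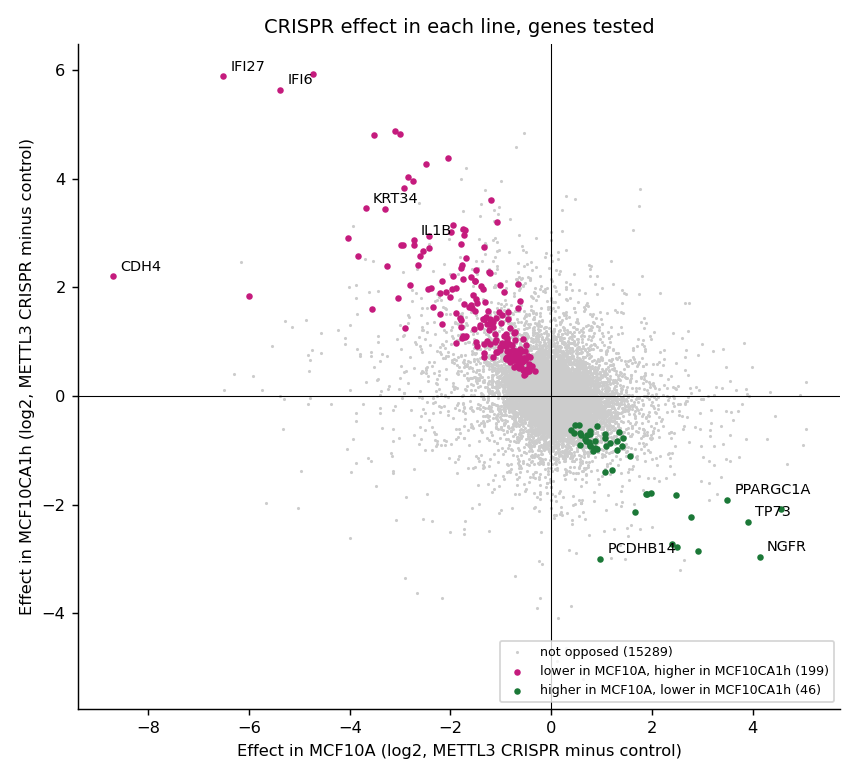
Effect of METTL3 CRISPR in MCF10A (x axis) and in MCF10CA1h (y axis), both as log2 differences of METTL3 CRISPR minus control, 1 point per gene tested. The 199 genes lower in MCF10A and higher in MCF10CA1h lie at the upper left, reaching -6.52 and 5.89 for IFI27, and the 46 genes with the reverse pattern lie at the lower right.

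Interferon-stimulated genes held more opposed members than any other of the 26 gene lists. Of 59 interferon effectors tested, 22 were opposed, all of them lower in MCF10A and higher in MCF10CA1h, and none had the reverse pattern. In MCF10A 24 fell and 0 rose, in MCF10CA1h 44 rose and 0 fell, and 47 had a positive difference of effects and 0 a negative one. Over all genes tested 1.58% were opposed, 9.03% had a positive and 5.25% a negative difference, the shares to set beside each list below. The median effect of the list was -0.86 in MCF10A and 1.98 in MCF10CA1h, against -0.01 and -0.02 over all genes tested. IFI27 (chr14:94104836-94116695 in hg38, Ensembl gene ENSG00000165949), which encodes a small interferon-induced membrane protein, had normalized counts of 1301, 83 and 1388 in the MCF10A control libraries and 2.22, 8.05 and 5.75 in the MCF10A METTL3 CRISPR libraries. In the other line IFI27 had 165, 54.4 and 91.9 in the MCF10CA1h controls and 6647, 4075 and 6618 in the MCF10CA1h METTL3 CRISPR libraries. The METTL3 CRISPR libraries lay below every control in MCF10A and above every control in MCF10CA1h, and control b of MCF10A lay far below controls a and c. The effects of IFI27 were -6.52 ± 0.86 (adjusted p = 0.000674) in MCF10A and 5.89 ± 0.86 (adjusted p = 0.0023) in MCF10CA1h.

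IFI6, of the same protein family, had 1678, 98.3 and 1640 in the MCF10A control libraries and 11.8, 13.4 and 19.5 in the MCF10A METTL3 CRISPR libraries. It had 120, 74 and 79.4 in the MCF10CA1h controls and 7339, 3253 and 3833 in the MCF10CA1h METTL3 CRISPR libraries, so that the order of the groups was the same as for IFI27. IFIT1, which binds viral RNA that lacks 2'-O-methylation of its cap, had 272, 58.5 and 360 in the MCF10A control libraries and 2.79, 7.53 and 8.52 in the MCF10A METTL3 CRISPR libraries. It had 64.3, 46.1 and 48.1 in the MCF10CA1h controls and 5892, 2103 and 2751 in the MCF10CA1h METTL3 CRISPR libraries, with effects of -4.74 in MCF10A and 5.93 in MCF10CA1h. IFI44 and IFI44L, a pair of neighbouring interferon-induced genes, had effects of -3.52 in MCF10A and 4.82 in MCF10CA1h and of -2.85 in MCF10A and 4.03 in MCF10CA1h. OASL, a relative of the oligoadenylate synthetases, had 179, 68.8 and 220 in the MCF10A control libraries and 19.7, 8.49 and 13.5 in the MCF10A METTL3 CRISPR libraries. In MCF10CA1h OASL had 314, 258 and 243 in the MCF10CA1h controls and 4494, 2288 and 2524 in the MCF10CA1h METTL3 CRISPR libraries. ISG15, a ubiquitin-like protein that is conjugated to other proteins, had effects of -2.99 in MCF10A and 4.83 in MCF10CA1h, and HSH2D, an adapter of lymphocyte signalling that was not on the list, of -2.93 in MCF10A and 3.82 in MCF10CA1h. HSH2D was low in MCF10A, with 44.5, 10.9 and 13.8 in the controls and 6.25, 0 and 1.48 with METTL3 CRISPR. The size of its effect there depends on the 1 added to each value.

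The promoters of the leading effectors are shown because they hold matches to the core of the element that the interferon-activated factors bind. Each is the 300 bases from 250 before to 50 after the RefSeq start (GRCh38.p14), 5' to 3' in the direction of the gene, with capitals for matches to GAAA, any 2 bases and GAAA on either strand, where overlapping matches were counted. They are IFI27 at chr14:94110486-94110785 on the plus strand, IFI6 at chr1:27672143-27672442 on the minus strand, IFIT1 at chr10:89392373-89392672 on the plus strand and IFI44 at chr1:78649539-78649838 on the plus strand.
IFI27: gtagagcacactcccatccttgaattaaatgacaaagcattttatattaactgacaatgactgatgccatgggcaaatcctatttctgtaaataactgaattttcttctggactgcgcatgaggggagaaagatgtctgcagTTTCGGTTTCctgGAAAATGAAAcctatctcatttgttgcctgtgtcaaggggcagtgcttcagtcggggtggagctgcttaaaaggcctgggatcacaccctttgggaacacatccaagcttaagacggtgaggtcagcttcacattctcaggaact
IFI6: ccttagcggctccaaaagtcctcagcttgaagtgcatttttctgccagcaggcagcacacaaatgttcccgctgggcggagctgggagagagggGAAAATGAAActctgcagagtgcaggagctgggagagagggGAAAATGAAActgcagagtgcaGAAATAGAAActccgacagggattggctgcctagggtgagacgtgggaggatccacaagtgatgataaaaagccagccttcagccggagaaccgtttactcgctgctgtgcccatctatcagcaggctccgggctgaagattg
IFIT1: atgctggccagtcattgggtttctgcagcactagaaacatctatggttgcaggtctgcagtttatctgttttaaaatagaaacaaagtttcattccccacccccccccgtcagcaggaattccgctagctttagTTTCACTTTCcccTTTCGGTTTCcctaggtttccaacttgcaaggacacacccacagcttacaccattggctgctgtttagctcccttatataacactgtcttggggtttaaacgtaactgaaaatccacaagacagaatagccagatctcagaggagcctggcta
IFI44: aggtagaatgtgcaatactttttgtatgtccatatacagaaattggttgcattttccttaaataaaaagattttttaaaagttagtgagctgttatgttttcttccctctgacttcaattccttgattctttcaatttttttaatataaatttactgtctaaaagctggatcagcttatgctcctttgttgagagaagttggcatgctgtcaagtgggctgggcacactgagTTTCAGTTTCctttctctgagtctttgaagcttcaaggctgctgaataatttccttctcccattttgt
IFI27 has 1 match on each strand, IFI6 has 3 on the gene's strand, IFIT1 has 2 on the other strand and IFI44 has 1 there. Of the 22 opposed interferon effectors, 18 had a promoter in the table and 13 of those (72.2%) held a match, against 1255 of 35116 promoters (3.57%). Of the 37 interferon effectors that were tested and not opposed, 26 had a promoter and 14 (53.8%) held one. Among the opposed genes lower in MCF10A that were on neither interferon list, 7 of 131 (5.34%) held a match, and 2 of 38 (5.26%) did among the opposed genes of the other direction. The table held a promoter for 151 of 193 opposed genes with a symbol in the first direction and for 38 of 45 in the other. These are matches of letters and not measured binding.

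**Figure D2:**
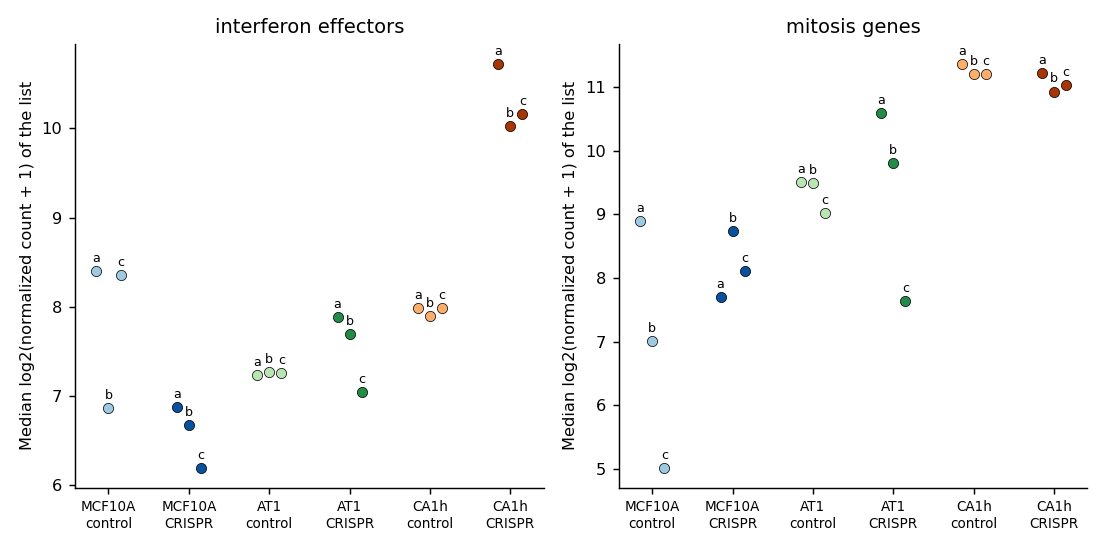
Median log2(normalized count + 1) over the members tested of the interferon effector list (left) and of the mitosis list (right), 1 point per library, with the replicate letter above it. MCF10A control b sits at 6.87 for interferon effectors beside the METTL3 CRISPR libraries at 6.20 to 6.88, and the mitosis list spans 5.02 to 8.89 among the MCF10A controls.

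In MCF10A the interferon effectors separated the groups less cleanly than in MCF10CA1h by library. The median level of the interferon effectors was 8.40, 6.87 and 8.36 in MCF10A controls a, b and c and 6.88, 6.68 and 6.20 in MCF10A METTL3 CRISPR, so that control b lay among the METTL3 CRISPR libraries. It was 7.99, 7.90 and 7.99 in the MCF10CA1h controls and 10.72, 10.03 and 10.16 in MCF10CA1h METTL3 CRISPR, where the groups did not overlap. The number of opposed interferon effectors was 20 without MCF10A control a, 30 without b and 11 without c, 13 and 14 without MCF10A METTL3 CRISPR a and c, and 6 with each line fitted alone. The mitosis list moved between the same MCF10A controls, with medians of 8.89, 7.01 and 5.02 in a, b and c. Its part in the result was not tested, and neither was that of the leukocyte markers given above.

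Of 29 genes of interferon sensing and signalling, which make and carry the signal, 9 had a positive and 1 a negative difference of effects, and 3 were opposed. The opposed members were IRF7, which drives interferon transcription, IFIH1, a sensor of double-stranded RNA also called MDA5, and IRF9, a DNA-binding factor of the interferon response. IRF7 had 244, 63.6 and 268 in the MCF10A control libraries and 29.3, 35.3 and 18.7 in the MCF10A METTL3 CRISPR libraries. It had 115, 141 and 173 in the MCF10CA1h controls and 1087, 813 and 842 in the MCF10CA1h METTL3 CRISPR libraries. IRF9 had 736, 368 and 1020 in the MCF10A control libraries and 202, 141 and 155 in the MCF10A METTL3 CRISPR libraries, and 150, 118 and 165 in the MCF10CA1h controls and 1369, 1053 and 1093 in the MCF10CA1h METTL3 CRISPR libraries. The groups did not overlap for either gene, and the effects were -2.54 in MCF10A and 2.67 in MCF10CA1h for IRF7, -2.17 in MCF10A and 2.12 in MCF10CA1h for IFIH1 and -1.98 in MCF10A and 3.01 in MCF10CA1h for IRF9. Of 18 genes of MHC class I presentation, 7 had a positive and 1 a negative difference, 3 fell and 1 rose in MCF10A, and 6 rose in MCF10CA1h. The opposed members were HLA-F, with effects of -1.59 in MCF10A and 1.69 in MCF10CA1h, and HLA-C, with -0.78 in MCF10A and 0.94 in MCF10CA1h. HLA genes share sequence with one another, so that reads may be divided among them. The sensing list held 6 opposed members without MCF10A control b and 5 with the letter as a block within MCF10A. The MHC list held 4 without MCF10A control b or with either block, and 1 without MCF10CA1h control b or c or METTL3 CRISPR a or c.

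Among 44 chemokines, cytokines and genes of NF-kB signalling, 13 had a positive and 2 a negative difference of effects, and 3 were opposed, the interleukin 1 genes IL1A and IL1B and the antagonist IL1RN. The count of 3 was 6 without MCF10A control a, 2 without b or c, 1 without MCF10A METTL3 CRISPR a or MCF10CA1h control b, 8 with the letter as a block within each line and 6 with it within MCF10A alone. IL1B, which encodes a secreted inflammatory cytokine, had 902, 1418 and 3392 in the MCF10A control libraries and 228, 268 and 240 in the MCF10A METTL3 CRISPR libraries. In MCF10CA1h IL1B had 1324, 680 and 553 in the MCF10CA1h controls and 7383, 5931 and 4439 in the MCF10CA1h METTL3 CRISPR libraries. Its lowest MCF10A control lay above the highest METTL3 CRISPR library, the reverse held in MCF10CA1h, and the effects were -2.73 ± 0.41 (adjusted p = 0.00166) and 2.87 ± 0.41 (adjusted p = 0.0022). The effects of IL1A were -1.22 in MCF10A and 2.26 in MCF10CA1h, and those of IL1RN -1.21 in MCF10A and 1.41 in MCF10CA1h. SERPINB2, an inhibitor of plasminogen activators, had 2094, 3648 and 1445 in the MCF10A control libraries and 329, 690 and 216 in the MCF10A METTL3 CRISPR libraries. It had 253, 158 and 117 in the MCF10CA1h controls and 1744, 964 and 597 in the MCF10CA1h METTL3 CRISPR libraries, with no overlap in either line.

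**Figure D3:**
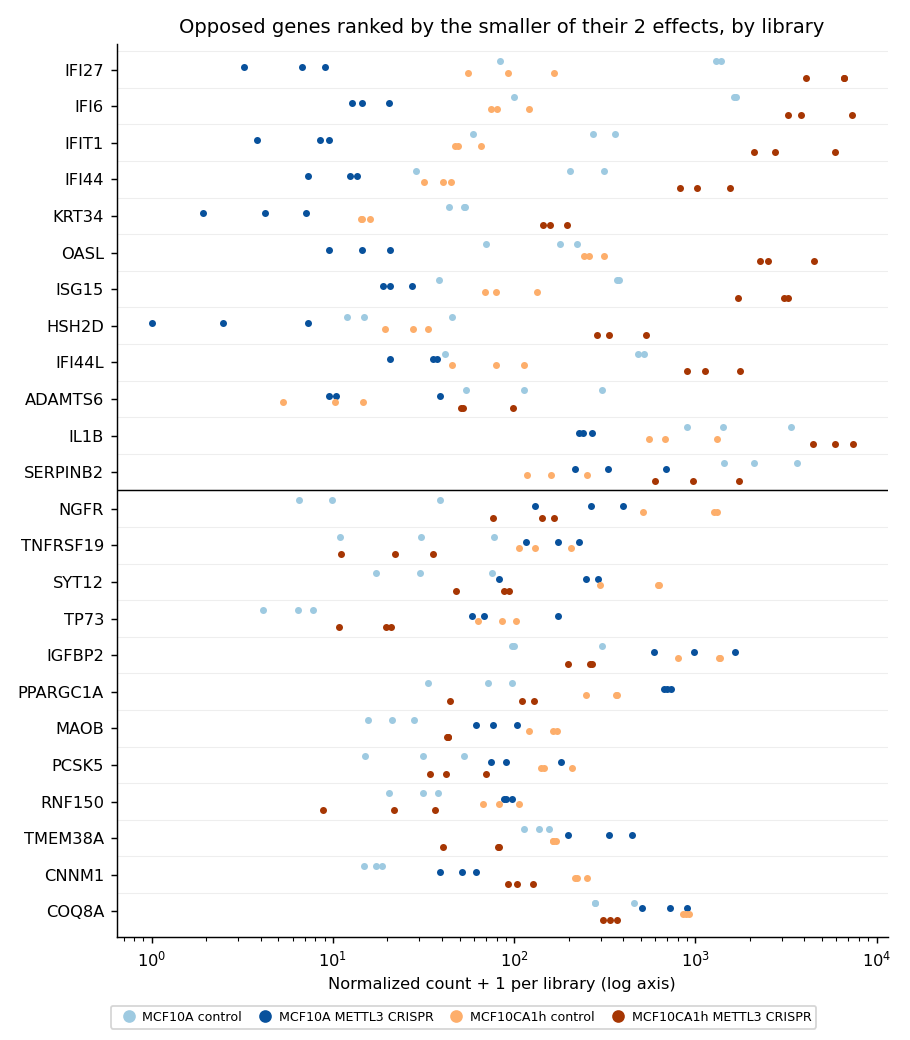
Normalized count + 1 in each of the 12 libraries (log axis) for the 12 opposed genes of each direction with the largest smaller effect, with 4 colours for the 4 groups. Above the line METTL3 CRISPR libraries lie left of the controls in MCF10A and right of them in MCF10CA1h, and below the line the order is reversed; IFI27 spans 2.22 to 8.05 normalized counts in MCF10A METTL3 CRISPR and 4075 to 6647 in MCF10CA1h METTL3 CRISPR.

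Some adhesion, matrix and keratin genes also fell in MCF10A and rose in MCF10CA1h. Of 24 genes of the basement membrane and hemidesmosome, 11 had a positive and 1 a negative difference, 9 fell and 3 rose in MCF10A, and 5 rose in MCF10CA1h. LAMA3 and LAMB3, chains of the hemidesmosomal laminin, and COL17A1, the hemidesmosomal collagen, were opposed. LAMB3 had 75572, 76644 and 167626 in the MCF10A control libraries and 37436, 37843 and 41625 in the MCF10A METTL3 CRISPR libraries. It had 19011, 17359 and 13743 in the MCF10CA1h controls and 40318, 54799 and 39750 in the MCF10CA1h METTL3 CRISPR libraries, so that the METTL3 CRISPR libraries of the 2 lines overlapped while the controls did not. The effects were -1.35 in MCF10A and 1.43 in MCF10CA1h for LAMB3, -1.48 in MCF10A and 1.71 in MCF10CA1h for LAMA3 and -0.53 in MCF10A and 0.82 in MCF10CA1h for COL17A1. Of 38 keratins, kallikreins and cornified envelope genes, 11 had a positive and 4 a negative difference, and KRT14 and KRT6A were opposed. KRT14, a keratin of basal cells, had 2278, 2322 and 2699 in the MCF10A control libraries and 361, 1275 and 797 in the MCF10A METTL3 CRISPR libraries. It had 836, 1027 and 1247 in the MCF10CA1h controls and 4220, 5739 and 3908 in the MCF10CA1h METTL3 CRISPR libraries. Basal markers did not all move this way. KRT5 averaged 101000 and 189000 in MCF10A control and METTL3 CRISPR, and 214000 and 276000 in MCF10CA1h. KRT17 averaged 49900 and 65200, and 45200 and 73800, in the same order. Of the 12 basal markers 6 fell and 1 rose in MCF10A, and 4 rose and 0 fell in MCF10CA1h. KRT6A had effects of -0.85 in MCF10A and 1.42 in MCF10CA1h, with overlapping groups in MCF10A, and shares much of its sequence with KRT6B and KRT6C. KRT34, a keratin of hair that was not named by the list, had 51.6, 52.5 and 42.9 in the MCF10A control libraries and 0.91, 6.15 and 3.24 in the MCF10A METTL3 CRISPR libraries, and 13.5, 13.3 and 15.1 in the MCF10CA1h controls and 157, 195 and 143 in the MCF10CA1h METTL3 CRISPR libraries. The 3 opposed genes of the basement membrane list became 6 without MCF10A control a, 1 without MCF10A METTL3 CRISPR a and 6 with the letter as a block within MCF10A. The 2 of the keratin list became 6 without MCF10A control a, 3 without c and 1 without control b, without MCF10A METTL3 CRISPR a or c or without any single MCF10CA1h library, and they were 1 with equal sums per library and 4 or 5 with the block within each line or within MCF10A.

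Of 47 mesenchymal genes, 14 had a positive and 1 a negative difference of effects, 14 fell and 2 rose in MCF10A, and 6 rose in MCF10CA1h. FN1, which encodes the matrix protein fibronectin, had 479, 227 and 386 in the MCF10A control libraries and 206, 179 and 159 in the MCF10A METTL3 CRISPR libraries. It had 2594, 3453 and 3219 in the MCF10CA1h controls and 9157, 14083 and 12135 in the MCF10CA1h METTL3 CRISPR libraries, and both effects passed (-0.94 in MCF10A and 1.92 in MCF10CA1h). TGFBI, a secreted matrix protein induced by TGF-beta, had effects of -1.24 in MCF10A and 1.33 in MCF10CA1h, ITGA5, the fibronectin receptor subunit, -1.78 in MCF10A and 1.07 in MCF10CA1h, and LOXL2, a collagen crosslinking enzyme, -1.32 in MCF10A and 1.74 in MCF10CA1h. The LOXL2 groups overlapped in MCF10A, with 325 in control c and 412 in METTL3 CRISPR b. VIM, the intermediate filament vimentin, fell in MCF10A and had effects of -0.93 ± 0.22 (adjusted p = 0.0194) there and 0.23 ± 0.22 (adjusted p = 0.646) in MCF10CA1h. MMP2, a gelatinase, rose in MCF10A (2.63 ± 0.48, adjusted p = 0.00457) and was 539, 365 and 437 against 352, 287 and 237 in MCF10CA1h, with an effect there of -0.61 ± 0.48 (adjusted p = 0.545). The cadherins CDH1 and CDH2 had effects of -0.19 in MCF10A and 0.19 in MCF10CA1h and of -0.66 in MCF10A and -0.04 in MCF10CA1h, and neither passed in either line or for the difference. Of 41 epithelial junction genes 2 had a positive and 3 a negative difference, and PRSS8, a membrane serine protease, was opposed with -0.67 in MCF10A and 2.06 in MCF10CA1h. The shares over all genes tested were 9.03% positive, 5.25% negative and 1.58% opposed. Of the mesenchymal genes 4 were opposed, and 2 without MCF10CA1h METTL3 CRISPR b. PRSS8 was not opposed without MCF10A control a or c, without any single MCF10A METTL3 CRISPR library or with equal sums.

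Single members of other families were opposed, beside 1.58% of all genes tested. CDH4, the retinal cadherin, was at or near 0 in the METTL3 CRISPR libraries of MCF10A and between 136 and 938 in the other 3 groups. It had 402, 654 and 760 in the MCF10A control libraries and 1.78, 0 and 0 in the MCF10A METTL3 CRISPR libraries, and 136, 228 and 215 in the MCF10CA1h controls and 904, 938 and 792 in the MCF10CA1h METTL3 CRISPR libraries. Its difference of effects was 10.91 ± 0.55 (adjusted p = 1.3e-06), a size that depends on the 1 added to each value. SEMA7A, a membrane-anchored semaphorin, had 197, 233 and 438 in the MCF10A control libraries and 21.2, 37.3 and 13.6 in the MCF10A METTL3 CRISPR libraries, and 54.1, 98.4 and 69.5 in the MCF10CA1h controls and 160, 325 and 207 in the MCF10CA1h METTL3 CRISPR libraries. Among 52 genes of axon guidance and adhesion SEMA7A and SEMA3B (-0.99 in MCF10A and 1.49 in MCF10CA1h) were opposed, and 7 had a positive and 7 a negative difference. The 2 opposed members became 0 without MCF10A METTL3 CRISPR a, 1 without MCF10A control c, without MCF10A METTL3 CRISPR b or c or without any single MCF10CA1h library, and 1 with equal sums per library. ADAMTS6, a secreted metalloprotease, had effects of -2.98 in MCF10A and 2.79 in MCF10CA1h. In the S100 family of calcium-binding proteins 3 of 14 members were opposed, S100A10, S100A11 and S100A16, with effects between -0.73 and -0.45 in MCF10A and between 0.40 and 0.53 in MCF10CA1h. This count of 3 fell to 0 without any single MCF10CA1h library, to 1 without MCF10A control b or c or MCF10A METTL3 CRISPR a or c, and to 1 with equal sums, and S100A16 was not opposed with the letter as a block within each line. Of 36 genes of hypoxia and glycolysis 9 had a positive and 2 a negative difference, and ANGPTL4, a secreted inhibitor of lipoprotein lipase (-1.15 in MCF10A and 1.27 in MCF10CA1h), and NDRG1, a hypoxia-induced protein (-1.11 in MCF10A and 1.14 in MCF10CA1h), were opposed. Only 1 of these 2 had groups that did not overlap in both lines. The hypoxia list held 0 opposed members without MCF10A control b, without MCF10A METTL3 CRISPR a or c or without any single MCF10CA1h library, 1 with equal sums and 4 with the block within each line.

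Among the 46 genes of the reverse direction were NGFR, TNFRSF19, TP73, IGFBP2, PPARGC1A and 3 clustered protocadherins. NGFR, the low-affinity neurotrophin receptor and a basal cell marker, had 38.2, 8.93 and 5.54 in the MCF10A control libraries and 399, 130 and 265 in the MCF10A METTL3 CRISPR libraries. It had 1262, 516 and 1313 in the MCF10CA1h controls and 142, 75 and 164 in the MCF10CA1h METTL3 CRISPR libraries. METTL3 CRISPR thus lay above every control in MCF10A and below every control in MCF10CA1h, with effects of 4.14 ± 0.63 (adjusted p = 0.00164) and -2.96 ± 0.63 (adjusted p = 0.0169). TNFRSF19, an orphan receptor of the TNF receptor family, had effects of 2.49 in MCF10A and -2.79 in MCF10CA1h. TP73, a transcription factor of the p53 family, had 5.41, 6.79 and 3.09 in the MCF10A control libraries and 174, 57.2 and 67.6 in the MCF10A METTL3 CRISPR libraries. It had 102, 84.7 and 62.4 in the MCF10CA1h controls and 20, 9.87 and 18.6 in the MCF10CA1h METTL3 CRISPR libraries. IGFBP2, a secreted binding protein of insulin-like growth factors, had 306, 99.1 and 96 in the MCF10A control libraries and 1664, 591 and 983 in the MCF10A METTL3 CRISPR libraries, and 1360, 798 and 1347 in the MCF10CA1h controls and 262, 197 and 267 in the MCF10CA1h METTL3 CRISPR libraries. PPARGC1A, a coactivator of mitochondrial genes, had 71.2, 96.3 and 32.4 in the MCF10A control libraries and 694, 667 and 734 in the MCF10A METTL3 CRISPR libraries, and 247, 366 and 368 in the MCF10CA1h controls and 128, 43.3 and 110 in the MCF10CA1h METTL3 CRISPR libraries. For NGFR, TNFRSF19, TP73, IGFBP2 and PPARGC1A the controls of the 2 lines stood apart and the groups within a line did not overlap. NGFR and IGFBP2 were not opposed without MCF10CA1h control a or c or without MCF10CA1h METTL3 CRISPR b.

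Further genes were opposed in this direction. MAOB, a mitochondrial monoamine oxidase, had effects of 1.90 in MCF10A and -1.81 in MCF10CA1h, COQ8A, a protein of coenzyme Q synthesis, of 1.07 in MCF10A and -1.39 in MCF10CA1h, and PCSK5, a proprotein convertase, of 1.88 in MCF10A and -1.80 in MCF10CA1h. SYT12, a synaptotagmin, had 2.41 in MCF10A and -2.73 in MCF10CA1h, RNF150, a RING finger protein, 1.66 in MCF10A and -2.14 in MCF10CA1h, TMEM38A, a cation channel of intracellular membranes, 1.21 in MCF10A and -1.36 in MCF10CA1h, and CNNM1, a member of the cyclin M family of membrane proteins, 1.57 in MCF10A and -1.10 in MCF10CA1h. CELSR2, a large cadherin with G protein-coupled receptor structure, had 1.30 in MCF10A and -1.0 in MCF10CA1h and was, with CDH4, 1 of 2 opposed among 16 cadherins outside the clusters. Of 24 clustered protocadherins, adhesion molecules that are expressed in combinations by neurons, 0 had a positive and 8 a negative difference of effects, 3 rose and 1 fell in MCF10A, and 8 fell and 0 rose in MCF10CA1h. PCDHB10 had 10.9, 19.5 and 15.4 in the MCF10A control libraries and 147, 78.5 and 147 in the MCF10A METTL3 CRISPR libraries, and 14.3, 19.6 and 19.4 in the MCF10CA1h controls and 3.95, 2.39 and 0 in the MCF10CA1h METTL3 CRISPR libraries. PCDHB11 and PCDHB14 were opposed too, with effects of 2.47 in MCF10A and -1.82 in MCF10CA1h and of 0.98 in MCF10A and -3.0 in MCF10CA1h. The members of the cluster resemble one another in sequence, so that reads may be divided among them, and the list held 1 opposed member without MCF10A control b, MCF10A METTL3 CRISPR c or any single MCF10CA1h control. PCDHB11 was not opposed with the letter as a block within each line (adjusted p = 0.0594 in MCF10CA1h by limma).

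Other functions held few opposed genes or none. Single opposed members of large lists are near the 1.58% of all genes tested that were opposed. Of 35 mitosis genes 0 had a called difference of effects, while all 35 were higher in the MCF10CA1h controls than in those of MCF10A. The median effect of the mitosis list was 1.23 in MCF10A and -0.27 in MCF10CA1h, with the spread among the MCF10A controls given above. Of 39 DNA replication genes 0 had a positive and 2 a negative difference, RRM1 among them, a subunit of ribonucleotide reductase. Of 23 replication-dependent histone genes, whose mRNAs lack a poly(A) tail, 7 had a positive difference and 0 were opposed. Cytosolic ribosomal proteins (84 tested) had 0 called differences, and oxidative phosphorylation subunits (80) had 1 positive and 5 negative, with COX6B2 opposed (-2.02 in MCF10A and 1.82 in MCF10CA1h) and with 4 opposed members without MCF10A control a. The counts of positive and negative differences were 1 and 1 of 34 for cholesterol and fatty acid synthesis, 4 and 1 of 35 for the unfolded protein and amino acid stress genes, 3 and 1 of 30 for p53 targets, and 1 and 0 of 20 for HOX genes, with 0 opposed in each. They were 6 and 3 of 34 for the TGF-beta and IGF axis, where IGFBP2 was opposed, 1 and 3 of 7 for neurotrophin receptors and ligands, where NGFR was, and 5 and 5 of 23 for NRF2 targets and metallothioneins, where SRXN1, which reduces oxidized peroxiredoxins, was (-0.48 in MCF10A and 0.49 in MCF10CA1h). SRXN1 was not opposed with equal sums or without any single library other than MCF10A control a and MCF10A METTL3 CRISPR b, and COX6B2 was not without any single MCF10CA1h control or without MCF10CA1h METTL3 CRISPR b or c. Of 20 m6A writers, erasers and readers 2 had a positive difference, the eraser ALKBH5 and the reader IGF2BP2, with effects of -0.14 in MCF10A and 0.51 in MCF10CA1h and of -0.83 in MCF10A and 0.40 in MCF10CA1h, and 0 were opposed. The 26 lists together held 56 of the 245 opposed genes, and 189 were on none of them.

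**Figure D4:**
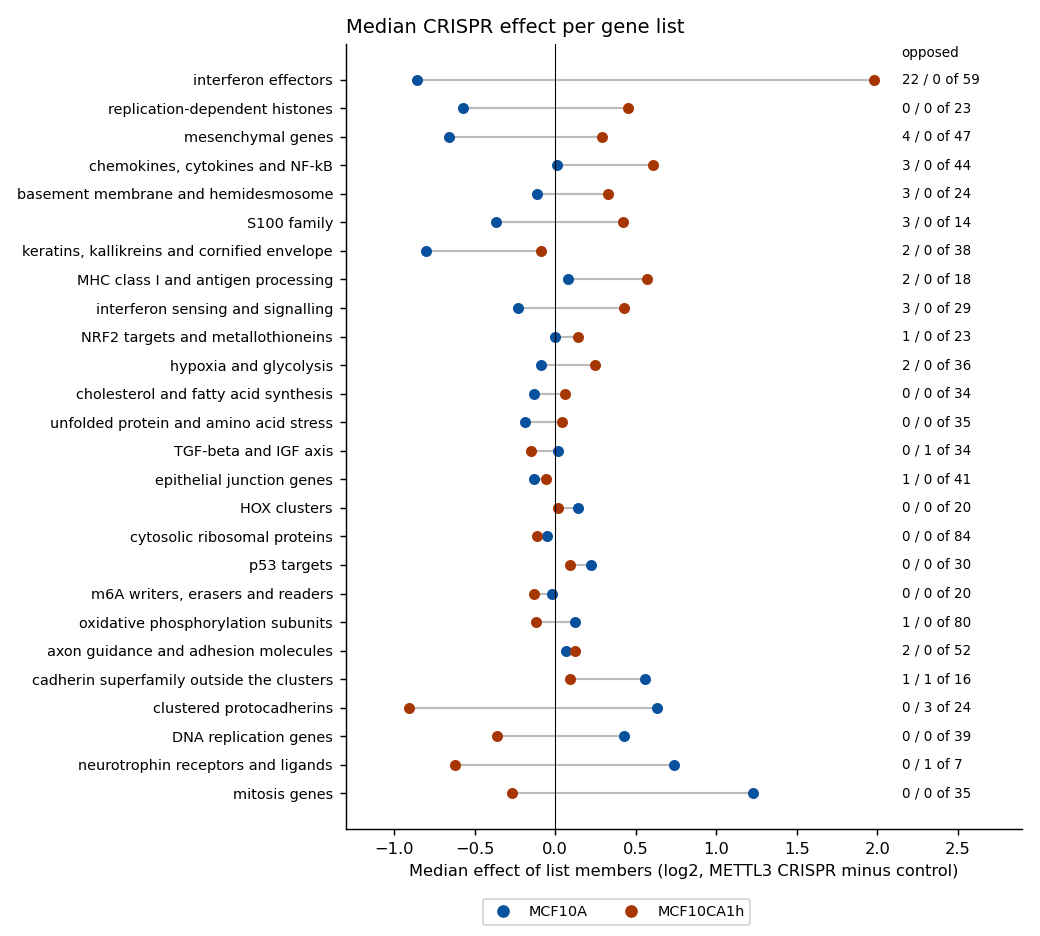
Median effect of METTL3 CRISPR over the members tested of each gene list in MCF10A and in MCF10CA1h (x axis, log2), ordered by the median difference of effects. The numbers on the right give the opposed members lower in MCF10A and higher in MCF10CA1h, then those of the reverse direction, of the members tested; interferon effectors, with 22 of 59, have the widest gap, from -0.86 to 1.98.

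Most opposed genes already differed between the controls of the 2 lines, and the order of the lines mostly ran against the direction of the effects. Because the line differences are made from the same libraries as the effects, and because a difference of effects is the line difference with METTL3 CRISPR minus that without, the counts describe the opposed genes and no test was made on them. Of the 199 genes that fell in MCF10A and rose in MCF10CA1h, the MCF10CA1h controls were lower than the MCF10A controls for 139 (69.8%), higher for 23 (11.6%) and not called different for 37. Over all genes tested, MCF10CA1h controls were lower for 30.5% and higher for 29.4%. With METTL3 CRISPR the order turned: MCF10CA1h was higher for 146 of the 199 (73.4%), lower for 14 and not called for 39, against 30.5% higher and 30.2% lower over all genes. For 86 (43.2%) both differences passed with opposite signs, so that the order of the lines crossed, which held for 294 of 15534 genes in all (1.89%). The median line difference of the 199 genes was -1.16 without and 1.27 with METTL3 CRISPR, and over all genes it was -0.05 and -0.03. The gap between the lines became smaller with METTL3 CRISPR for 88 of the 199 and larger for 111, by the size of the fitted log2 difference.

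For the 46 genes of the reverse direction the MCF10CA1h controls were higher for 28 (60.9%), lower for 5 and not called for 13, and with METTL3 CRISPR MCF10CA1h was lower for 36 (78.3%), higher for 3 and not called for 7. The order crossed for 18 (39.1%), and the median line difference was 0.81 without and -1.55 with METTL3 CRISPR. Single genes showed distinct forms of the relation. LAMB3 differed between the controls (-2.58) and had 0.19 with METTL3 CRISPR, which was not called. IFI27 crossed, from -2.49 to 9.92, and IL1B from -1.04 to 4.56. FN1 was higher in MCF10CA1h in both states (3.14 and 6.0) and PRSS8 lower in both (-6.35 and -3.63). NGFR went from 6.12 to -0.99, of which the second was not called, and PCDHB14 from -0.45, which was not called, to -4.42. Among the interferon effectors 24 of 59 were lower and 14 higher in the MCF10CA1h controls, and with METTL3 CRISPR 53 were higher and 0 lower. The opposed genes lay on most chromosomes, from 0.394% of the genes tested on chromosome 16 to 2.96% on chromosome 20 among chromosomes 1 to 22 and X, and 93.5% of them were protein coding against 83.6% of all genes tested.

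**Figure D5:**
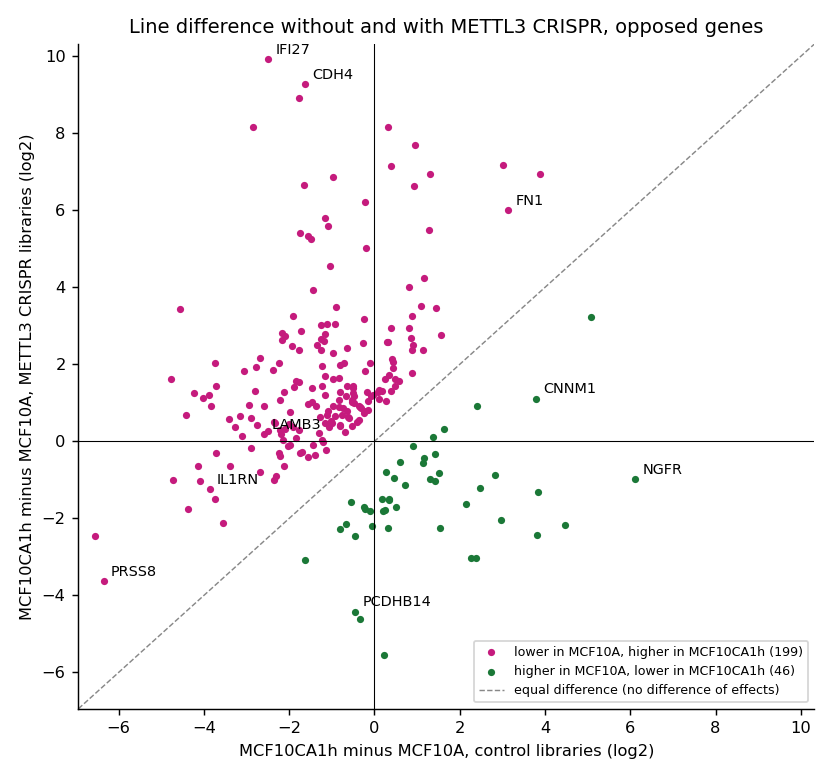
Log2 difference MCF10CA1h minus MCF10A among control libraries (x axis) and among METTL3 CRISPR libraries (y axis) for the 245 opposed genes. Points on the dashed line would have no difference of effects; most of the 199 genes sit left of 0 and above 0, with medians of -1.16 and 1.27, and most of the 46 sit right of 0 and below 0, with 0.81 and -1.55.

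MCF10AT1, the intermediate line, gave libraries that had no part in the fit that called these genes. Fitted alone, 2091 of 16050 genes changed there, 957 lower (5.96%) and 1134 higher (7.07%). Of the 199 genes lower in MCF10A and higher in MCF10CA1h, 183 could be tested in MCF10AT1, where 29 rose (15.8%), 26 fell (14.2%) and 128 were not called. Of the 46 reverse genes 5 rose, 7 fell and 34 were not called. Of 55 interferon effectors 11 rose (20.0%) and 3 fell (5.45%), against 7.07% and 5.96% of all genes, with a median effect of 0.29. The summed counts of the list were 68441, 61543 and 40449 in the MCF10AT1 controls and 197729, 171966 and 125715 with METTL3 CRISPR. Its median levels were 7.24, 7.27 and 7.26 against 7.89, 7.7 and 7.05. IFI27 fell in MCF10AT1, as in MCF10A, with 121, 168 and 152 in the controls and 13.3, 16.4 and 8.61 with METTL3 CRISPR (effect -3.46, adjusted p = 0.00202), and HSH2D fell (-5.41), while IFI44L rose (1.8). FN1 had 70.5, 65.1 and 81.9 in the MCF10AT1 controls and 55947, 65869 and 134507 with METTL3 CRISPR, an effect of 10.08, and the hemidesmosomal COL17A1 had -7.92, in the direction of MCF10A. IGFBP2 rose (4.39), as in MCF10A, and TNFRSF19 fell (-3.71), as in MCF10CA1h. In the controls the mean of MCF10AT1 lay between those of MCF10A and MCF10CA1h for 87 of the 199 genes, below both for 95 and above both for 17, and for 18, 7 and 21 of the 46. Over all genes tested it lay between for 41.8%, below both for 28.8% and above both for 29.4%. MCF10AT1 METTL3 CRISPR c stood apart from a and b in the mitosis list, at 7.63 against 10.59 and 9.81, and its part in these counts was not tested.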

How the data were processed

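Normalized counts of 18 RNA sequencing libraries were deposited in 1 table, and the 12 libraries of MCF10A and MCF10CA1h were compared, with the 6 of MCF10AT1 as a separate comparison. Per the labels and methods the authors depleted ribosomal RNA, made stranded libraries, although the labels name polyA RNA, quantified transcripts with kallisto 0.46.1 on hg38, summed them to genes and scaled the counts with DESeq2 1.26.0. The deposited values are thus a normalized signal and not whole reads (32.6 to 48.5% of low values were within 0.05 of a whole number), so that a count model, counting intervals and reads per gene could not be had, and values are comparable within a gene and not between genes of unlike length. Of 60579 rows, 24646 held no values. Symbols were found for 26268 of 35933 genes.

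Values were taken as log2(value + 1), genes that averaged at least 10 across the 12 libraries were kept, and 4 group means were fitted with limma 3.58.1 in R 4.3.3 with an intensity trend. The contrasts were the effect in each line, their difference, and the line difference among controls and among METTL3 CRISPR libraries, each with Benjamini-Hochberg adjustment at 0.05 over all genes tested. MCF10AT1 was fitted alone. The values after ± are standard errors. The fits were tested on simulated data drawn with the same spread in all groups and no pairing of letters. That test therefore does not bear on the unequal spread of the groups or on pairing. Members and gene lists were chosen with earlier results of these data known. Genes were named by a rule: among opposed genes with a symbol, an average of at least 50 and no overlap between the groups of a line, the 12 of each direction with the largest smaller effect, for each list up to 5 opposed members by the same measure or, with fewer than 2, up to 3 members by the size of the difference, and METTL3, CDH1, CDH2, VIM, MMP2 and FN1. A few genes that the rule names are not reported here. Whether the letters a, b and c pair libraries was judged from the correlation of deviations from the group means, since no label says what a letter marks. It was 0.128 to 0.225 for the 3 same-letter pairs in MCF10A, against -0.175 to -0.001 for its 6 other pairs, so that the letters were taken to pair the MCF10A libraries. It was -0.016 to 0.056 in MCF10CA1h and -0.15 to 0.167 between the lines, where they were not. Counts, effects and p-values are from the fit without this pairing unless a block is named. The permutation test of METTL3 also left the pairing out. Markers of basal, luminal, fibroblast, leukocyte and endothelial cells were summed per library. Promoter sequences came from RefSeq on GRCh38.p14, matched by symbol. Alternatives covered the pseudocount (0.5 and 5), the filter, the trend, the scaling, 18 libraries fitted together, weights per group, a replicate block, stricter thresholds and each library left out. No measurement of m6A was used.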

Additional observations from a re-analysis of the deposited data

Results flagged for a closer look

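The test of the difference itself set apart 81 of the genes chosen for naming, and 2217 genes in all, because METTL3 CRISPR had unlike effects in MCF10A and MCF10CA1h. Their adjusted p (limma with Benjamini-Hochberg adjustment over 15534 genes, 12 libraries) ran from 1.3e-06 to 0.0421, and 54 differences were positive and 27 negative. The log2 difference of effects, MCF10CA1h minus MCF10A, is given for each.

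Among interferon, MHC class I and cytokine genes, it was IFI27 12.41, IFI6 11.02, IFIT1 10.67, IFI44 8.33, OASL 6.76, ISG15 7.83, IFI44L 6.89, IL1B 5.60, IRF7 5.21, IFIH1 4.29, IRF9 5.00, HLA-F 3.28, HLA-C 1.73, IL1A 3.49 and IL1RN 2.63. Among the other strongest opposed genes that fell in MCF10A, it was KRT34 7.15, HSH2D 6.75, ADAMTS6 5.76 and SERPINB2 5.17. Among the strongest opposed genes that rose in MCF10A, it was NGFR -7.11, TNFRSF19 -5.28, SYT12 -5.14, TP73 -6.24, IGFBP2 -5.02, PPARGC1A -5.41, MAOB -3.70, PCSK5 -3.68, RNF150 -3.80, TMEM38A -2.57, CNNM1 -2.67 and COQ8A -2.47. Among adhesion, matrix and keratin genes, protocadherins included, it was LOXL2 3.06, TGFBI 2.57, ITGA5 2.84, FN1 2.86, PRSS8 2.73, CLDN1 -1.48, DSC3 -1.27, KRT14 3.91, KRT6A 2.26, LAMA3 3.19, LAMB3 2.77, COL17A1 1.35, CDH4 10.91, CELSR2 -2.30, PCDHB10 -5.78, PCDHB11 -4.29, PCDHB14 -3.97, VIM 1.16 and MMP2 -3.24. Among axon guidance, neurotrophin, S100 and TGF-beta genes, it was IGFBP6 2.17, SMAD6 -1.94, SEMA7A 5.17, SEMA3B 2.48, SORCS2 -5.91, S100A10 1.26, S100A11 0.92 and S100A16 0.91. Among genes of hypoxia, stress, NRF2, p53 and lipid synthesis, it was SREBF1 -1.09, SQLE 0.99, ANGPTL4 2.43, NDRG1 2.26, CTH 3.15, CHAC1 2.69, XBP1 1.34, PMAIP1 1.28, TP53I3 1.24, SESN1 -1.20, SRXN1 0.97, AKR1B10 -2.83, MT1F 2.26 and MT2A 1.66. Among replication, histone, mitochondrial and m6A genes, it was RRM1 -0.83, H2BC4 3.27, H2BC8 2.85, H4C8 1.92, COX6B2 3.84, NDUFB5 -0.91, SDHD -0.87, IGF2BP2 1.23 and ALKBH5 0.65. 

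Groups of 3 libraries are too small for a test of single outlying libraries.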

How the results depend on the processing

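The number of genes with a difference of effects, 2217, lay between 1514 and 3570 when each of the 12 libraries was left out, highest without MCF10A control a, and was 880 with the 18 libraries fitted together and 936 at an adjusted p under 0.01; it was within 1.5 times of 2217 under the other alternatives. The 245 opposed genes became 160 with no filter on low values, 160 with no intensity trend, 53 with the 18 libraries fitted together, 46 at an adjusted p under 0.01, 117 at an absolute log2 difference of at least 1 and 119 with each line fitted alone, and lay between 91 and 445 with 1 library left out. Of these, the genes lower in MCF10A and higher in MCF10CA1h (199) became 125 with no intensity trend, 44 with 18 libraries, 39 at the stricter p, 101 at the log2 threshold and 80 with lines fitted alone, and lay between 79 and 332 with 1 library left out. The reverse genes (46) became 25 with no filter, 9 with 18 libraries, 7 at the stricter p and 16 at the log2 threshold, and lay between 11 and 113 with 1 library left out. Membership changed too. With weights per group 281 genes were opposed, of which 157 were among the 245. With the replicate block within each line 368 were, of which 229 were among the 245. The 22 opposed interferon effectors became 14 with 18 libraries, 11 at the stricter p and 6 with lines fitted alone, and lay between 11 and 30 with 1 library left out, lowest without MCF10A control c, while the median difference of the list kept its sign. The cause of these shifts was not tested; the stricter thresholds lower a count by construction.

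The genes that differed between the controls (9294) and with METTL3 CRISPR (9424) became 5632 and 5706 at an absolute log2 difference of at least 1. The MCF10AT1 count of 2091 was 5259 with 18 libraries fitted together, 1010 at the stricter p and between 1020 and 2439 with 1 library left out. The METTL3 difference of effects was -0.82 in the 12 libraries and lay between -1.12 and -0.61 with 1 library left out, where it passed without MCF10A METTL3 CRISPR c (-1.12). Among the 84 named genes, METTL3 included, no difference changed its sign under any alternative, and 24 lost their call under at least 1.

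With a replicate block of letter within each line, the opposed genes were 368, of which 79 of the reverse direction, and the METTL3 difference -0.82 (adjusted p = 0.0172). With the replicate block within MCF10A alone, an alternative chosen after seeing the data, they were 452, of which 351 and 101 in the 2 directions, and the METTL3 difference was -0.82 (adjusted p = 0.00824). Across both lines the block gave 244 opposed genes. In MCF10AT1 same-letter pairs had correlations of 0.097 to 0.473, short of the rule for pairing, and the block moved its count to 3939. Depth in reads is unknown, so that the precision of low values rests on the 3 libraries of a group.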

Other observations

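Some genes of the lists passed for the difference of effects while 1 line alone moved. CTH, which makes cysteine in the transsulfuration pathway, had 147, 337 and 362 in the MCF10A control libraries and 14.6, 22.5 and 12.8 in the MCF10A METTL3 CRISPR libraries, and 24.2, 32.6 and 20.6 in the MCF10CA1h controls and 10.1, 17 and 16.7 in the MCF10CA1h METTL3 CRISPR libraries. It fell in MCF10A (-3.94 ± 0.40, adjusted p = 0.000158), and in MCF10CA1h its effect was -0.79 and did not pass. MT1F and MT2A, metallothioneins that bind zinc and copper, fell in MCF10A with effects of -1.71 for MT1F and -1.09 for MT2A, beside 0.55 and 0.58 in MCF10CA1h, which did not pass, and no other metallothionein of the list was called lower in MCF10A. AKR1B10, an aldo-keto reductase, had 42.9, 20.1 and 16.4 in the MCF10A control libraries and 220, 175 and 187 in the MCF10A METTL3 CRISPR libraries, and 126, 124 and 119 in the MCF10CA1h controls and 130, 126 and 143 in the MCF10CA1h METTL3 CRISPR libraries, so that METTL3 CRISPR in MCF10A lay above all libraries of MCF10CA1h. Metallothionein genes share sequence with one another, and reads may be divided among them.

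Beside NGFR, SORCS2 of the neurotrophin list had a called difference of effects. SORCS2, a receptor that pairs with NGFR, had 0, 0.56 and 0 in the MCF10A control libraries and 46, 31.1 and 33.3 in the MCF10A METTL3 CRISPR libraries, and 30.3, 15.6 and 24.2 in the MCF10CA1h controls and 19.3, 7.14 and 11.2 in the MCF10CA1h METTL3 CRISPR libraries. SORCS2 rose in MCF10A, and its effect did not pass in MCF10CA1h. Of the p53 targets, SESN1, a stress-induced inhibitor of growth signalling, rose in MCF10A (1.11) and had -0.09 in MCF10CA1h, while TP53I3, a quinone reductase, had -0.19 in MCF10A and rose in MCF10CA1h (1.05). CLDN1, a tight junction protein, rose in MCF10A (1.42) and had -0.06 in MCF10CA1h.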
